A study of Homo sapiens with 6 samples.

Results

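The Notch pathway was followed through 30 genes in human H1 embryonic stem cells, an established line, of which 3 libraries were wild type (WT) and 3 were labelled HEB KO, or HEB-/- in the series' text. HEB is the product of TCF12, a transcription factor of the E protein class. The genes were chosen by symbol and grouped by role into 4 receptors, 5 ligands, 7 target genes, 3 Fringe glycosyltransferases, 3 processing enzymes, 4 nuclear cofactors, and 4 Deltex and Numb genes. All 30 symbols were found among the 23591 genes of the expression table, and 23 passed a minimum of 1 FPKM in any 3 or more of the 6 libraries. FPKM counts fragments relative to transcript length and library size, so levels can be compared between genes per length. All cells grew in a serum-free defined medium on Matrigel, and both groups shared the H1 background. The labels do not say how many knockout clones were used or whether replicates were separate cultures, so the spread behind each p-value may be technical. The 3 HEB KO libraries carry names with a shared stem, X423_4, whose meaning is not given. If they came from the same clone, its own differences from WT could not be told apart from loss of HEB.

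Notch receptors are single-pass membrane proteins that are switched on by Delta-like and Jagged ligands on a neighbouring cell. Ligand binding lets ADAM proteases and then gamma-secretase cut the receptor, and the freed intracellular domain joins the DNA-binding protein RBPJ and a Mastermind coactivator at target genes, chiefly of the HES and HEY repressor families. Fringe enzymes extend O-fucose on the receptor and so alter which ligands it answers to. In human embryonic stem cells the pathway is known for its part in the exit from the undifferentiated state, and in lymphocytes E proteins and Notch act on shared genes.

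Promoter windows show a feature that was not read when the genes were chosen by symbol. The target genes are grouped as genes at which RBPJ acts, so matches in them are not independent of that grouping. RefSeq GRCh38.p14 gave windows of 300 bases, from 250 before to 50 after a gene start, for 25 of the 30 genes and 32 starts. DLL1, DLL3, HEY1, MFNG and DTX1 had none. Each window was searched on both strands for TGGGAA, the core of the sequence that RBPJ binds. It was present in the windows of 5 of the 6 target genes, HES1, HES4, HES5, HEY2 and HEYL, and absent from that of NRARP. Of the 26 windows of the other members 3 held it, 2 of them of LFNG and 1 of RBPJ itself. It occurred in 24.0% of all 34943 windows, and in 2 or more copies in 3.79%, against 4 of the 6 target gene windows. The windows of the 5 target genes with a match and the upstream LFNG window are printed here because HES and HEY genes are read as the output of the pathway and LFNG had the largest difference toward HEB KO. Capitals mark TGGGAA or its complement TTCCCA.
HES1, chr3:194135898-194136197, plus strand: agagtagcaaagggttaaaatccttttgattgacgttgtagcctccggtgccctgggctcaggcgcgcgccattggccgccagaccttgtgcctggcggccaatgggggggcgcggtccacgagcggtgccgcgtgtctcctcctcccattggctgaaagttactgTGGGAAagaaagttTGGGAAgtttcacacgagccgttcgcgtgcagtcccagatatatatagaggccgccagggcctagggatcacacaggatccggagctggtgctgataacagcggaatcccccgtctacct
HES4, chr1:1000048-1000347, minus strand: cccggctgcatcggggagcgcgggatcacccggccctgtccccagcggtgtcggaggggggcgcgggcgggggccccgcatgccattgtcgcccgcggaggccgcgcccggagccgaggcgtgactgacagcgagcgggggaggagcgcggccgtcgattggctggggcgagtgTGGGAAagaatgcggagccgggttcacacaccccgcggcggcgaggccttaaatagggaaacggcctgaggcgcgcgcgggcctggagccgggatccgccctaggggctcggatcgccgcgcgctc
HES5, chr1:2530214-2530513, minus strand: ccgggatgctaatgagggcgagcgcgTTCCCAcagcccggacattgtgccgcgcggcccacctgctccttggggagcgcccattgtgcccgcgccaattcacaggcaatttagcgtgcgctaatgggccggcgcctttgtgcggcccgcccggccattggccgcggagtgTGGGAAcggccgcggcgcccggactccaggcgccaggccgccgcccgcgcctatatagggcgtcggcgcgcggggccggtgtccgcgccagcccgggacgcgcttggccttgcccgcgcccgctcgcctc
HEY2, chr6:125749382-125749681, plus strand: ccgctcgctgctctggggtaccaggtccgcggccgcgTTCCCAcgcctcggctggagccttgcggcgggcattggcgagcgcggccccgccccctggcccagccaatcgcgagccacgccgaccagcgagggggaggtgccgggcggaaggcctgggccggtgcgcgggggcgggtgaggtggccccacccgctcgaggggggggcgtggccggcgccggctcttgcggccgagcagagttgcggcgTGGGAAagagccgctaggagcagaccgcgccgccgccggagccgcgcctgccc
HEYL, chr1:39639594-39639893, minus strand: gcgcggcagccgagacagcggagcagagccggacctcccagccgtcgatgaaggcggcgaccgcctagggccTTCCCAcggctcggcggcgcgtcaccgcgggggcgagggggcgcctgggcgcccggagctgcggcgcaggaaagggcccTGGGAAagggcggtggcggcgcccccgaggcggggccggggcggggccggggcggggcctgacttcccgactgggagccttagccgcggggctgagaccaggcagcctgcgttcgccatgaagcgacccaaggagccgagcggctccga
LFNG, chr7:2512279-2512578, plus strand: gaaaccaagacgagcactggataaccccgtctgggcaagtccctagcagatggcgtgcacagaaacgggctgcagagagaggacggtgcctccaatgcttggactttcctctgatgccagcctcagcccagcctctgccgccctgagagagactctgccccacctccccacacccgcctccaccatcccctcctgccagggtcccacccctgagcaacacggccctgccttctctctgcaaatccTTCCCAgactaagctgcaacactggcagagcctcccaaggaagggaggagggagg

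In HES1 the matches began 84 and 70 bases before the start, both on the gene's own strand. In HES4 the match began 76 bases before the start and in HES5 matches began 224 and 80 bases before it. In HEYL they began 178 and 99 bases, and in HEY2 213 and 3 bases, before the start. E proteins bind E-boxes, of which CAGCTG and CACCTG were searched on both strands. Neither contains the other or TGGGAA, and CAGCTG reads the same on both strands. CAGCTG was in 3 of the 32 member windows, those of PSEN2, MAML2 and 1 of the RBPJ starts, against 17.9% of all windows. CACCTG was in 9 of the 32, those of HES5, NRARP and the downstream LFNG start among them, against 20.6% of all windows. These are letter matches only, and no binding was measured.

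The files give no read counts, so the depth of each library is unknown. Summed FPKM was 440703 in HEB KO library 1 and 635114 to 714875 in the other 5 libraries. HEB KO library 1 stood apart in many genes, so values without it are given for many of those where it leads or reverses a difference. TCF12, the targeted gene, read 44.2, 55.7 and 51.0 FPKM in WT and 14.2, 6.69 and 8.28 FPKM in HEB KO, and it fell (log2 difference -2.31 with SE 0.28, adjusted p = 0.0310 by limma). It missed the threshold when any 1 library other than HEB KO library 1 was left out, with adjusted p up to 0.193, with no filter on low values (0.105) and with the replicate number as a block (0.0957). All 12 markers of human embryonic stem cells, POU5F1, SOX2, NANOG, LIN28A and DNMT3B among them, were at 1 FPKM or more in every library. NANOG was at 198 to 208 FPKM in WT and 74.3 to 123 FPKM in HEB KO, without overlap (log2 difference -1.08 with SE 0.27, adjusted p = 0.274 by limma). The summed level of the 12 was 3282 to 3832 FPKM in WT, 3676 and 3876 FPKM in HEB KO libraries 2 and 3, and 2186 FPKM in HEB KO library 1. Summed markers of other cells in WT and HEB KO were 74.7 to 98.4 and 64.0 to 137 FPKM for neural, 2.05 to 18.5 and 12.2 to 15.7 FPKM for endothelial, 0.291 to 0.594 and 0.686 to 2.38 FPKM for endoderm, and 16.0 to 34.6 and 45.8 to 186 FPKM for smooth muscle and cardiac genes, with 8 genes a list. TEK held most of the endothelial sum in WT library 1, at 17.1 FPKM, and in HEB KO, at 9.17 to 14.3 FPKM. TAGLN read 168 of the 186 FPKM of smooth muscle and cardiac genes in HEB KO library 2. Summed markers of neural crest and mesenchyme are given with the receptors.

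None of the 23 Notch pathway genes tested passed limma at an adjusted p under 0.05, where 0.240% of all 12937 genes did. At an unadjusted p under 0.05 there were 2, HEY1 and LFNG, or 8.70% of those tested, against 10.0% of all genes. The median log2 fold change of the 23 was 0.07, against -0.04 over all genes. The log2 fold change was above 0 in 12 and below it in 11, and above 0 in 45.2% of all genes. On the deposited scale the groups did not overlap for 4 genes higher in HEB KO, against 7.72% of all genes. These were LFNG, DTX1, DTX4 and NUMBL. The groups also did not overlap for 4 lower, HEY1, HEY2, DLL3 and NRARP, against 11.8%. Relative to the summed FPKM of each library, the groups would overlap for NRARP, DTX4 and NUMBL. The shares of all genes were not taken on that scale. Every member that passed the filter reached 1 FPKM in at least 1 library of each group, though the libraries of the higher group alone would have carried DTX1, NUMBL, HEY1, DLL1 and MAML3 past it. With weights estimated per library, which give less weight to libraries that fit poorly, 4 of the 23 passed limma, LFNG higher and HEY1, DLL1 and JAG1 lower in HEB KO, where 14.5% of all genes did.

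**Figure D1:**
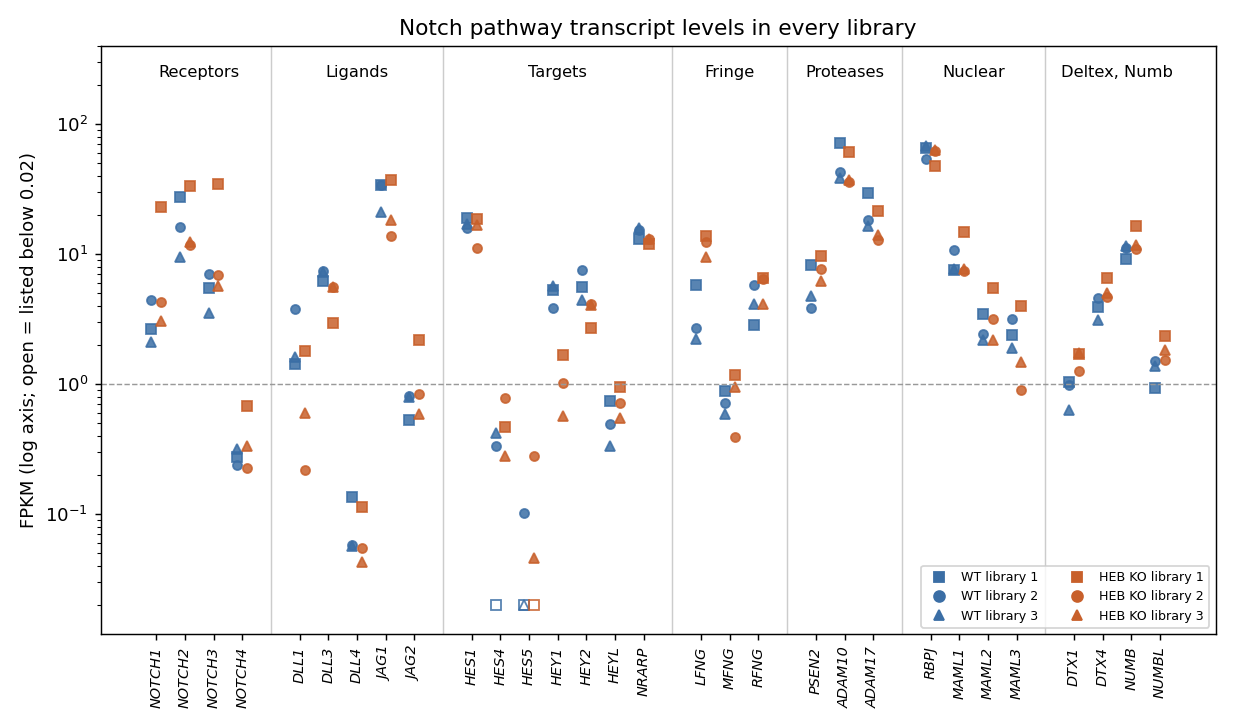
FPKM of all 30 Notch pathway genes (log axis) in every library, by role, with WT in blue and HEB KO in orange and squares, circles and triangles for libraries 1, 2 and 3. The dashed line marks 1 FPKM and open symbols are listed below 0.02 FPKM. LFNG lies higher and HEY1 lower in every HEB KO library, and the HEB KO library 1 squares of NOTCH1 and NOTCH3 stand far above the other libraries.

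Among the target genes, HEY1, a basic helix-loop-helix repressor, showed the largest difference. It read 5.29, 3.89 and 5.68 FPKM in WT and 1.67, 1.02 and 0.567 FPKM in HEB KO. Every HEB KO library lay below every WT library, and the group means of 4.95 ± 0.942 and 1.08 ± 0.555 FPKM (SD, n = 3 each) differed 4.56-fold. In these bulk samples fewer cells that express a gene and less RNA per cell cannot be told apart. The log2 fold change was -1.53 (SE 0.26, limma adjusted p = 0.0971). It passed without HEB KO library 1 (limma adjusted p = 0.0335, where 0.587% of all genes did) and without both libraries numbered 1 (0.0115, where 3.71% of all genes did), and had an adjusted p between 0.269 and 0.396 without any other single library.

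HEY2, a close relative of HEY1 and a regulator of heart and artery formation, read 5.58, 7.54 and 4.48 FPKM in WT and 2.73, 4.17 and 4.07 FPKM in HEB KO. Its groups did not overlap, but the gap between WT library 3 and HEB KO library 2 was small (log2 difference -0.55 with SE 0.24, adjusted p = 0.507 by limma). Without HEB KO library 1, the lowest, the log2 difference was -0.40. NRARP, an ankyrin repeat protein that is both a target and a feedback inhibitor of Notch, read 13.2, 15.5 and 15.8 FPKM in WT and 11.97, 13.1 and 13.1 FPKM in HEB KO. Again the groups did not overlap on the deposited scale. WT library 1 lay next to HEB KO libraries 2 and 3 (log2 difference -0.20 with SE 0.18, adjusted p = 0.732 by limma). Relative to the summed FPKM of each library, NRARP would be highest in HEB KO library 1.

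HES1, the repressor most often read as a Notch target and the highest of these genes by group mean, read 19.1, 16.0 and 17.004 FPKM in WT and 18.8, 11.1 and 16.9 FPKM in HEB KO. In HEB KO library 2 NRARP lay above it. Its groups overlapped (log2 difference -0.17 with SE 0.24, adjusted p = 0.827 by limma), and its difference took the other sign without HEB KO library 2, at 0.04. HES4, HES5 and HEYL, further repressors of these families, did not pass the filter. HES4 lay between 0 and 0.421 FPKM in WT and between 0.282 and 0.781 FPKM in HEB KO, and HES5 was listed at 0 in 3 libraries and was at most 0.280 FPKM. HEYL read 0.746, 0.494 and 0.337 FPKM in WT and 0.952, 0.714 and 0.546 FPKM in HEB KO.

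Summed over the 7 target genes, the level was 43.9, 43.8 and 43.7 FPKM in WT and 36.6, 31.1 and 35.4 FPKM in HEB KO. All 3 HEB KO sums lay below the WT sums on the deposited scale. The summed FPKM of all genes was 440703 in HEB KO library 1 and 635114 to 714875 elsewhere. Relative to that total HEB KO library 1 would have the highest target level, and the groups would overlap. HES1, NRARP, HEY2 and HEY1 made up nearly all of the sum, and HEY1 went from 12.1%, 8.88% and 13.0% of it in WT to 4.57%, 3.27% and 1.60% in HEB KO. All 4 tested target genes had a lower group mean in HEB KO, HES1 by less than its spread, while the 3 that did not pass the filter, HES4, HES5 and HEYL, had a higher one with overlap between the groups.

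**Figure D2:**
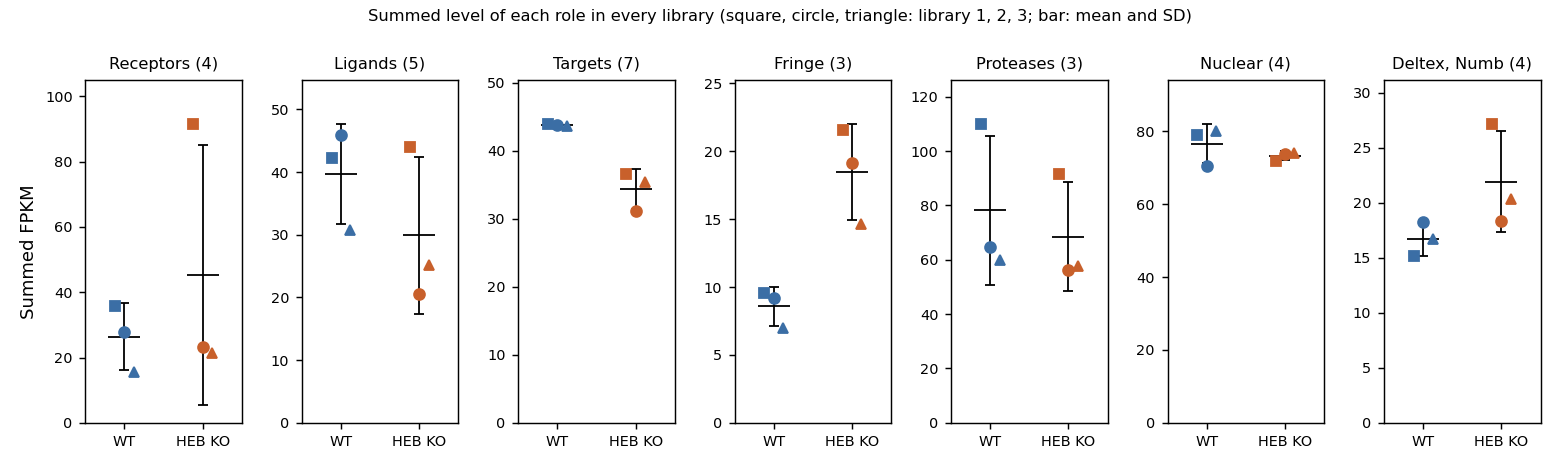
Summed FPKM of the genes of each role in every library, with the number of genes in brackets; squares, circles and triangles are libraries 1, 2 and 3 and the bars give the mean and SD. On the deposited scale the target sums do not overlap, at 43.7 to 43.9 FPKM in WT and 31.1 to 36.6 FPKM in HEB KO. The Fringe sums do not overlap either, whereas the receptor sum of HEB KO library 1 is 91.3 FPKM against 15.5 to 35.8 FPKM elsewhere.

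LFNG, the Fringe enzyme best known for the segmentation clock, was the member with the largest difference toward HEB KO. It read 5.83, 2.72 and 2.24 FPKM in WT and 13.8, 12.3 and 9.59 FPKM in HEB KO. Every HEB KO library lay above WT library 1, which was itself 2.35-fold above the mean of the other WT libraries. The group means were 3.59 ± 1.95 and 11.9 ± 2.15 FPKM, a 3.32-fold difference (log2 difference 1.56 with SE 0.31, adjusted p = 0.155 by limma). Without both libraries numbered 1 it was 4.43-fold higher in HEB KO and passed (log2 difference 1.78, limma adjusted p = 0.00555). Without any single library it did not pass, with adjusted p between 0.113 and 0.585.

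RFNG, a further Fringe enzyme, read 2.85, 5.78 and 4.13 FPKM in WT and 6.58, 6.39 and 4.13 FPKM in HEB KO, with overlap between the groups (log2 difference 0.37 with SE 0.27, adjusted p = 0.679 by limma). Its annotated span overlaps that of GPS1, which read 13.0 to 46.8 FPKM over the 6 libraries, and since the use of strand in the authors' counting is not known reads of one may be counted for the other. MFNG, the remaining Fringe gene, lay between 0.392 and 1.18 FPKM and did not pass the filter. Of the summed level of the 3 genes, LFNG made up 61.0% in WT library 1, 29.5% and 32.2% in WT libraries 2 and 3, and 64.1%, 64.5% and 65.4% in HEB KO. RFNG was the larger part only in WT libraries 2 and 3, at 62.7% and 59.4%.

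Among the ligands, JAG1 was the highest in every library and made up 67.0% to 84.0% of the summed ligand level. It read 34.0, 33.9 and 21.0 FPKM in WT and 37.0, 13.7 and 18.3 FPKM in HEB KO. HEB KO library 1 was the highest of all 6 and the other HEB KO libraries the lowest, so the groups overlapped (log2 difference -0.44 with SE 0.37, adjusted p = 0.720 by limma). Without HEB KO library 1 the log2 difference was -0.83 (limma adjusted p = 0.201). Without both libraries numbered 1 the WT mean was 1.71 times that of HEB KO, which did not pass (limma adjusted p = 0.137).

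DLL1, a Delta-like ligand needed in somite and neural development, read 1.43, 3.78 and 1.62 FPKM in WT and 1.79, 0.218 and 0.598 FPKM in HEB KO. HEB KO library 1 lay among the WT libraries and the other HEB KO libraries below them (log2 difference -0.83 with SE 0.38, adjusted p = 0.520 by limma). Without both libraries numbered 1 the log2 fold change was -1.34 and just missed the threshold (limma adjusted p = 0.0531). The annotated spans of DLL1 and FAM120B overlap, with FAM120B at 4.74 to 10.6 FPKM, so the low values of DLL1 are uncertain.

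DLL3, a divergent ligand that acts inside the cell and does not activate receptors on neighbours, read 6.22, 7.43 and 7.32 FPKM in WT and 2.96, 5.65 and 5.63 FPKM in HEB KO. The groups did not overlap, and here HEB KO library 1 was the lowest (log2 difference -0.51 with SE 0.25, adjusted p = 0.539 by limma). Without that library the log2 difference was -0.26. DLL4, the ligand of vessel sprouting, was at most 0.136 FPKM. JAG2 was below 1 FPKM in 5 libraries and at 2.17 FPKM in HEB KO library 1, and neither of these passed the filter.

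NOTCH1 and NOTCH3 stood apart in HEB KO library 1 alone. NOTCH1 read 2.65, 4.46 and 2.11 FPKM in WT and 22.97, 4.32 and 3.08 FPKM in HEB KO. NOTCH3 read 5.50, 7.04 and 3.55 FPKM in WT and 34.4, 6.89 and 5.73 FPKM in HEB KO. In both genes HEB KO libraries 2 and 3 lay within the range of the WT libraries, and library 1 was 6.21-fold and 5.45-fold above their mean. The log2 fold changes were 1.02 (SE 0.62, limma adjusted p = 0.607) for NOTCH1 and 0.99 (SE 0.59, limma adjusted p = 0.604) for NOTCH3. Without HEB KO library 1 they were 0.24 and 0.23.

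NOTCH2, the highest receptor in WT, read 27.4, 16.1 and 9.49 FPKM in WT and 33.3, 11.8 and 12.4 FPKM in HEB KO. Library 1 was the highest in each group (log2 difference 0.07 with SE 0.48, adjusted p = 0.974 by limma), and the difference changed sign when HEB KO library 1 was left out, to -0.40, and when WT library 3 was left out, to -0.29. NOTCH2NL, a near-identical partial copy of NOTCH2, read 3.66 to 6.85 FPKM in 5 libraries and 17.6 FPKM in HEB KO library 1, so the split of reads between the 2 genes is uncertain. NOTCH4, known from endothelium, stayed between 0.226 and 0.678 FPKM and did not pass the filter. By level the order in WT was NOTCH2, NOTCH3, NOTCH1 and NOTCH4, where NOTCH3 lay above NOTCH1 within each library but their ranges overlapped, and in HEB KO library 1 NOTCH3 lay just above NOTCH2.

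The shift of HEB KO library 1 was shared by other members. It was at least 2-fold above the mean of HEB KO libraries 2 and 3 in 8 of the 23 tested, NOTCH1, NOTCH2, NOTCH3, DLL1, JAG1, HEY1, MAML2 and MAML3, against 14.9% of all genes, and at least 2-fold below it in 0, against 10.9% of all genes. In 13 of the 23 it was the highest of all 6 libraries, against 27.5% of all genes. The median shift of the 23 was 0.51 on the log2(FPKM + 1) scale, against -0.01 over all genes. Across genes the shift rose with transcript length, with a Spearman correlation of 0.66 over the 23 members and 0.40 over the 12630 tested genes with a known length. These points share the same 3 libraries, and genes are not independent replicates. The longest annotated transcripts of NOTCH1, NOTCH2 and NOTCH3 have 9306, 11389 and 8666 bases. In the longest of 10 equal length classes of all genes, the median shift was 0.53 and the upper quartile 1.003, below the shifts of 2.36, 1.39 and 2.28 of the 3 receptors. With GC content the shift correlated at -0.18 over the members and 0.00 over all genes. The shift of WT library 1 from WT libraries 2 and 3 correlated with GC content at -0.44 over the members and -0.45 over all genes. With length it correlated at 0.25 and 0.24.

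Most of the 8 markers of neural crest and mesenchyme moved in the same library. Of these 8 genes 7 were at least 2-fold above their mean of libraries 2 and 3 in HEB KO library 1, against 14.9% of all genes tested. Only 4 of the 8 reached 1 FPKM in any library, so most of the list lay below the filter behind that share. The same rule was met by 4 of the 8 smooth muscle and cardiac, 0 of the 8 neural and 1 of the 12 stem cell markers. Of the 8 endothelial genes CDH5, PECAM1 and CLDN5 met it, and of the 8 endoderm genes SOX7 and GATA4, all below 1 FPKM in every library. HEB KO library 1 had 13961 genes at 1 FPKM or more, and the other libraries 12468 to 12865. The summed level of the neural crest and mesenchyme genes was 48.0 FPKM in HEB KO library 1, 6.77 and 5.23 FPKM in HEB KO libraries 2 and 3 and 2.57 to 4.74 FPKM in WT. COL1A1 held most of it, at 39.7 FPKM, while SOX10 read 1.24 FPKM and LUM 0.0436 FPKM. LUM was listed at 0 in the other 5 libraries. TWIST1 read 0.157 FPKM in HEB KO library 1, below WT libraries 2 and 3 at 0.199 and 0.170 FPKM. PDGFRA read 0.358 FPKM in HEB KO library 1, below HEB KO libraries 2 and 3 at 0.478 and 0.545 FPKM. HEB KO library 1 was the highest of all 6 libraries in 6 of these 8 genes, against 27.5% of all genes tested. The part of these genes and of transcript length in the receptor values was not tested.

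**Figure D3:**
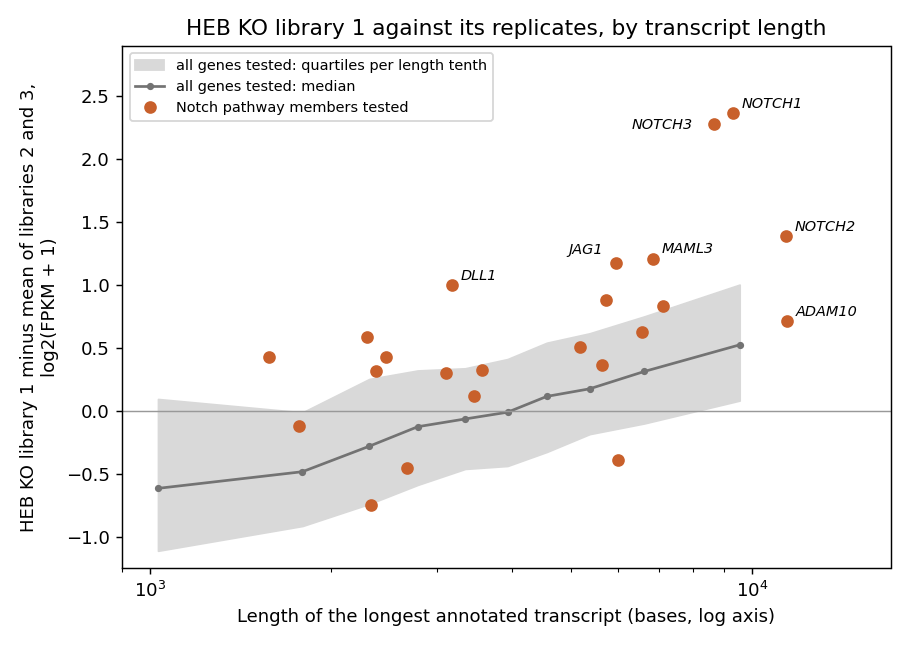
Difference of HEB KO library 1 from the mean of HEB KO libraries 2 and 3 on the log2(FPKM + 1) scale against the length of the longest annotated transcript in bases (log axis). Orange points are the 23 Notch pathway genes tested, and the grey line and band are the median and quartiles of all tested genes in classes by length. The grey median rises from -0.62 in the shortest class to 0.53 in the longest, and NOTCH1 and NOTCH3 lie at 2.36 and 2.28.

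ADAM10 and ADAM17, the membrane proteases that shed the receptor's outer part, were high in both libraries numbered 1. ADAM10 read 71.8, 42.8 and 38.4 FPKM in WT and 60.7, 35.7 and 37.5 FPKM in HEB KO (log2 difference -0.18 with SE 0.32, adjusted p = 0.874 by limma), and the sign turned without WT library 1, at 0.09. ADAM17 read 29.7, 18.2 and 16.6 FPKM in WT and 21.3, 12.8 and 14.1 FPKM in HEB KO (log2 difference -0.39 with SE 0.29, adjusted p = 0.685 by limma). PSEN2, a catalytic subunit of gamma-secretase, read 8.23, 3.84 and 4.75 FPKM in WT and 9.66, 7.68 and 6.23 FPKM in HEB KO. Its groups overlapped through WT library 1 (log2 difference 0.46 with SE 0.29, adjusted p = 0.622 by limma). Both libraries numbered 1 lay above the other 4 in 7 of the 23 members, ADAM10, ADAM17, PSEN2, NOTCH2, JAG1, HES1 and MAML2, against 20.1% of all genes.

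RBPJ, the DNA-binding protein through which all 4 receptors act, was the most abundant member in WT by group mean. It read 65.5, 54.0 and 68.4 FPKM in WT and 47.6, 62.3 and 62.8 FPKM in HEB KO, with overlap and a log2 fold change of -0.12 (SE 0.23, limma adjusted p = 0.876). That small difference changed sign under quantile normalization, at 0.03, and without HEB KO library 1, at 0.00.

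The Mastermind coactivators were present at lower levels. MAML1 read 7.62, 10.8 and 7.74 FPKM in WT and 14.8, 7.46 and 7.67 FPKM in HEB KO, and MAML2 3.50, 2.44 and 2.17 FPKM in WT and 5.54, 3.20 and 2.19 FPKM in HEB KO. MAML3 read 2.41, 3.17 and 1.89 FPKM in WT and 4.03, 0.896 and 1.49 FPKM in HEB KO. In all 3 genes HEB KO library 1 was the highest of the 6 libraries, and the groups overlapped (log2 fold changes 0.13, 0.28 and -0.26, SE 0.29, 0.30 and 0.36, limma adjusted p between 0.781 and 0.902). Without that library the log2 fold changes were -0.16, -0.00145 and -0.67. MGST2, which overlaps MAML3 in the annotation, read 6.30 to 22.8 FPKM.

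The Deltex and Numb genes were each higher in HEB KO by group mean. DTX1, a Deltex ubiquitin ligase known as a Notch target in lymphocytes, read 1.05, 0.989 and 0.639 FPKM in WT and 1.71, 1.27 and 1.74 FPKM in HEB KO. The groups did not overlap, with a difference of 1.76-fold (log2 difference 0.44 with SE 0.21, adjusted p = 0.522 by limma). DTX4, a ligase of the same family, read 3.93, 4.60 and 3.14 FPKM in WT and 6.57, 4.69 and 5.05 FPKM in HEB KO. WT library 2 and HEB KO library 2 nearly met (log2 difference 0.40 with SE 0.21, adjusted p = 0.568 by limma). Without HEB KO library 1, the highest, the log2 difference was 0.27.

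NUMB and NUMBL encode adaptor proteins that hold Notch back, NUMB by sending the receptor for endocytosis and degradation. NUMBL read 0.935, 1.51 and 1.38 FPKM in WT and 2.36, 1.54 and 1.83 FPKM in HEB KO, where the lowest HEB KO library lay just above the highest WT library (log2 difference 0.36 with SE 0.22, adjusted p = 0.613 by limma). Without HEB KO library 1 its log2 difference was 0.25. NUMB read 9.27, 11.2 and 11.6 FPKM in WT and 16.5, 10.9 and 11.7 FPKM in HEB KO. HEB KO library 1 alone was apart (log2 difference 0.25 with SE 0.22, adjusted p = 0.732 by limma), and without both libraries numbered 1 the difference was -0.01.

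**Figure D4:**
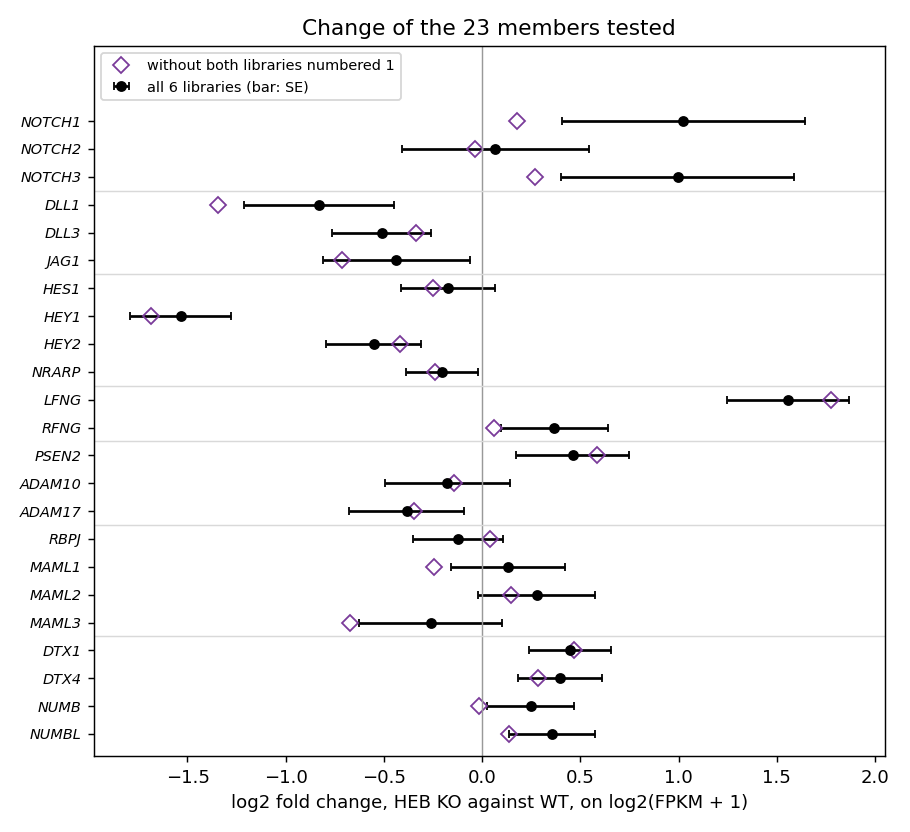
Log2 fold change of HEB KO against WT on the log2(FPKM + 1) scale for the 23 Notch pathway genes tested, in order of role. Black points with SE bars use all 6 libraries and open diamonds leave out both libraries numbered 1. HEY1 at -1.53 and LFNG at 1.56 lie farthest from 0, and NOTCH1 and NOTCH3 move from 1.02 and 0.99 to 0.18 and 0.27.

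Other genes of the pathway came from a list of 55 symbols, of which 53 were in the table and 43 were tested: gamma-secretase subunits, further glycosyltransferases, ubiquitin ligases, coactivators, corepressors, ligand-like proteins, HES genes and modulators. None passed limma at an adjusted p under 0.05, against 0.240% of all genes, and at an unadjusted p under 0.05 there were 2 higher and 3 lower in HEB KO, where 4.63% and 5.42% of all genes were. Their median log2 fold change was -0.0022. The groups did not overlap for 6 genes higher in HEB KO and 3 lower, against 7.72% and 11.8% of all genes.

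Of these, EGFL7, a secreted protein of vessels that can bind Notch, averaged 8.17 ± 3.34 FPKM in WT and 16.5 ± 2.12 FPKM in HEB KO (log2 difference 1.001 with SE 0.30, adjusted p = 0.359 by limma). DTX2, a further Deltex ligase, averaged 3.54 ± 1.20 and 8.44 ± 4.37 FPKM (log2 difference 1.001 with SE 0.35, adjusted p = 0.409 by limma), with HEB KO library 1 at 13.4 FPKM and a log2 difference of 0.65 without it. WT library 1 was the lowest for EGFL7 and DTX2, and without it their log2 differences were 0.69 and 0.76. MIB2, a ligase that promotes ligand endocytosis, averaged 0.770 ± 0.597 and 1.58 ± 0.427 FPKM, and DVL1 and DVL2, Dishevelled proteins of Wnt signalling, 6.11 ± 2.94 and 9.42 ± 1.67 FPKM and 10.3 ± 3.42 and 14.4 ± 0.125 FPKM. WT library 1 was also the lowest library for MIB2, DVL1 and DVL2. Without it their log2 differences went from 0.59 to 0.27 for MIB2, from 0.65 to 0.23 for DVL1 and from 0.50 to 0.25 for DVL2. CIR1, a corepressor that binds RBPJ, was lower in HEB KO, at 9.49 ± 0.504 and 6.29 ± 1.43 FPKM (log2 difference -0.54 with SE 0.21, adjusted p = 0.435 by limma). In HEB KO library 1, 9 of 43 were at least 2-fold above the mean of libraries 2 and 3, against 14.9% of all genes. The long coactivator and corepressor genes EP300, CREBBP and SPEN were among them, named after their values were seen. So were DTX2 and NCSTN, with longest transcripts of 2769 and 3031 bases. NCOR1, HDAC2 and MIB1, at 10720, 9874 and 9576 bases, were not.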

How the data were processed

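Total RNA of H1 cells was depleted of ribosomal RNA and made into stranded libraries, per the labels' protocols, and the submitters' processing notes name TopHat2 2.1.0, Bowtie2 2.2.6 and the hg19 build. The deposited table holds a value for each gene symbol in each library. No label names the unit. The values were read as FPKM made by the authors, because they are not whole and their sums differ. The sources used here do not give the quantifier, annotation, use of strand or scaling.

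Of 23619 entries, 28 with a date as symbol (at most 0.110% of a library) were left out. Levels as log2(FPKM + 1) were fitted in R 4.3.3 by limma 3.58.1 with its intensity trend, over 12937 genes that reached 1 FPKM in 3 or more libraries, with Benjamini-Hochberg adjustment over all of them. This scale understates changes of low genes. Fold values are ratios of mean FPKM. The smallest exact two-sided permutation p for 3 against 3 is 0.1. Transcript length and GC content are those of the longest GENCODE v29 transcript, and promoter windows and overlaps come from RefSeq GRCh38.p14. The fit was tested on simulated data. The members, lists and alternatives were chosen with earlier results of these data known. All members and TCF12 were named, and of the other pathway genes up to 6, those past the threshold first and then those without overlap by size of change. The table holds no counts, so no count test was run.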

Additional observations from a re-analysis of the deposited data

How the results depend on the processing

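Of all 12937 genes, 31 changed by limma at an adjusted p under 0.05. That count was 1874 with library weights, 18 when the filter was set at 5 FPKM, 11 when it was dropped, 10 with the replicate block, 480 without both libraries numbered 1 and 7 to 76 without single libraries. The count of Notch pathway members changed was 0 of the 23 tested. With library weights it was 4 (LFNG higher, and HEY1, DLL1 and JAG1 lower), against 14.5% of all genes. Without both libraries numbered 1 it was 2 (HEY1 and LFNG), against 3.71% of all genes. Without single libraries it was 0 to 1, where HEY1 passed without HEB KO library 1, against 0.587% of all genes. Other pathway genes changed numbered 0 of the 43 tested, and 0 without any single library. With library weights they numbered 7, against 14.5% of all genes. Without both libraries numbered 1 there was 1 (DNER), against 3.71% of all genes. With library weights the log2 fold change turned to -0.215 for NOTCH2, -0.0573 for RFNG, 0.0902 for RBPJ and -0.282 for MAML1. Without both libraries numbered 1 it turned to -0.0342 for NOTCH2, 0.0401 for RBPJ, -0.243 for MAML1 and -0.0138 for NUMB, and with quantile normalization to 0.0257 for RBPJ. Over single libraries left out, ranges that crossed 0 were -0.415 to 0.0927 for ADAM10, -0.396 to 0.429 for NOTCH2, -0.226 to 0.00484 for RBPJ, -0.165 to 0.286 for MAML1, -0.00145 to 0.517 for MAML2, -0.317 to 0.0391 for HES1 and -0.666 to 0.0377 for MAML3. The cause of these shifts was not tested. Libraries that share a number deviated from the group means with correlations of 0.262, -0.0399 and 0.269. Those of unlike number had -0.425 to 0.408, so the numbers are not taken to pair the samples. Both libraries numbered 1 lay above the other 4 in 20.1% of all genes and below them in 12.5%. Whether those 2 libraries share an effect was not tested. With the replicate block no member passed, and TCF12 had an adjusted p of 0.0957. Pseudocounts of 0.1 and 5, TMM scaling, quantile normalization, no filter and dropping the trend gave 0 members changed. The filter at 5 FPKM also gave 0, but only 14 members were tested there and HEY1 was not among them. Count tests could not be run, as the table holds no counts. With no counts, the precision of values under 1 FPKM is unknown.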
